A study of Arabidopsis thaliana with 11 samples.

Results

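The 53 genes described here make, export or control the plant cuticle, the lipid layer that seals the epidermis of Arabidopsis thaliana. They were chosen by locus, out of 33602 in the deposited table: the 3-ketoacyl-CoA synthase (KCS) family with 21 members, 5 genes of elongase partners and acyl-CoA supply, 6 of wax products (CER2 among them), 10 of cutin, 5 exporters and lipid transfer proteins, and 6 transcription factors. The choice was made with earlier results of these data known. Whole light-grown seedlings, 4 days old, were compared between iSPCH, which carries ESTpro:SPCH1-4A-YFP, and the Columbia wild type (WT). The transgene puts a YFP-tagged variant of SPEECHLESS (SPCH), the bHLH factor that starts the stomatal lineage, under an estradiol-inducible promoter. Seedlings of either line were taken untreated, here 0 h, or after 6 h or 8 h with 10 µM estradiol. These 6 groups held 11 libraries, 2 in each group but WT at 0 h, which had 1. How many seedlings were pooled, and whether iSPCH is 1 insertion event, is not given in the sources used here.

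Every aerial epidermal cell builds its cuticle from fatty acids. An elongase of the endoplasmic reticulum, in which a KCS enzyme sets the chain length and reductases and a dehydratase complete each round, makes very-long-chain acyl-CoAs that become alkanes, alcohols and esters of the wax. Cutin, the polyester scaffold, is made from hydroxylated shorter fatty acids joined to glycerol, and both leave the cell through ABCG transporters. MIXTA-like MYB factors and the SHINE factors switch these genes on in the epidermis.

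Values are read counts normalised by the authors. The file gives a mean per group, and the whole reads of each library were recovered from the digits of the means. Within a pair A is the deeper library and is given first. The names do not follow the replicate numbers of the labels. Differences and changes are on the scale of log2(normalised reads + 1), and adjusted p-values are those of limma over all genes tested, with a call at an FDR of 0.05. The labels do not say that libraries of a group were grown apart, and the spread behind the p-values may therefore be technical. The libraries held 15.55M to 32.81M assigned reads, and iSPCH 6 h B was the shallowest and stood apart from the others on the third principal component, which carried 3.39% of the variance. SPCH reads, which count the transgene too, were 320.0-fold higher in iSPCH than in WT at 6 h and 341-fold higher at 8 h. In all 11 libraries each of 4 epidermis, 4 guard cell, 4 root hair and 4 root endodermis and stele markers was above 0.

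Of the 53 genes, 43 passed the filter on low reads and were tested, each with 494 reads or more over the 11 libraries. The other 10 had 95 reads or fewer and are not described further: KCS7, KCS15, KCS17, KCS18, KCS21, the alkane hydroxylase MAH1, the wax ester synthase WSD1, and SHN1, SHN2 and SHN3. KCS18, WSD1 and SHN3 had 0 reads in every library. KCS18 is the elongase of seed oil.

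The upstream sequences of 4 of the genes are shown here. Of these, 3 share an element and were called lower in iSPCH at 6 h, and the fourth has the largest line difference among the regulators. The L1 box (TAAATGCA or TAAATGTA) is bound by the epidermal homeodomain factors ATML1 and PDF2. It occurred, on either strand, in the windows of 7 of the 53 genes, against 5.10% of 27443 promoters (windows run from 250 bases before to 50 bases after the gene start). The 7 genes were KCS9, KCS10, KCS18, GPAT8, ABCG11, ABCG12 and MYB96. In KCS9, KCS10, ABCG11, KCS18 and MYB96 it lay before the gene start, and in ABCG12 and GPAT8 after it. KCS18, with 0 reads, and MYB96, not called between the lines at either hour, are not shown. The sequences below are the 250 bases before the gene start, from RefSeq, build TAIR10.1, 5′ to 3′ on the strand of the gene, with L1 boxes in capitals.
KCS9 (chr2:7050549-7050798, plus strand): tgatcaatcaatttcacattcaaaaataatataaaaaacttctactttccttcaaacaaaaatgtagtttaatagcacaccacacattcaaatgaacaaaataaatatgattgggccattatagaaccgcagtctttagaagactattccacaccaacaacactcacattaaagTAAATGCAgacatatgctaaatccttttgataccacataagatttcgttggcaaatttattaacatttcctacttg
KCS10 (chr2:11173279-11173528, minus strand): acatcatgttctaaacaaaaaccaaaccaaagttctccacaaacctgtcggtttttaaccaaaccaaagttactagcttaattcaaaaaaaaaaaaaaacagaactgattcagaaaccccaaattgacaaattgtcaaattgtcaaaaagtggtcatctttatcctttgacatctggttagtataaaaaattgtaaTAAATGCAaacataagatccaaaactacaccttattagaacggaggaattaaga
ABCG11 (chr1:6142152-6142401, plus strand): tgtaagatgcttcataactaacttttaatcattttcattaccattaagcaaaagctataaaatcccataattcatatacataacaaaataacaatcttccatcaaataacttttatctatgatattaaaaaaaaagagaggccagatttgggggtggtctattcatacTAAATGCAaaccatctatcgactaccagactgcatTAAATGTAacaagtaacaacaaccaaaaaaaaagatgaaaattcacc
MYB16 (chr5:4974421-4974670, plus strand): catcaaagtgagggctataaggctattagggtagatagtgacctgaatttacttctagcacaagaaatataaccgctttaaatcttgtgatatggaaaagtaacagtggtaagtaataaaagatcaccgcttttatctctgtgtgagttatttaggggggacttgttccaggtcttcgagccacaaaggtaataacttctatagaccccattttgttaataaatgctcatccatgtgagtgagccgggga
KCS9 and KCS10 hold 1 L1 box each, ABCG11 holds 2, and MYB16 holds none of the letters searched. Of the other motifs, the G-box CACGTG was in 0 of the 53 windows (7.68% of all promoters), the GCC-box GCCGCC in 1, that of GPAT6 (2.57%), and the MYB element TAACTA or TAACTG in 18 (29.8%). These are matches of letters in a window and were not tested as binding sites.

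Before induction the cuticle genes covered a wide span of levels per kb of transcript. The highest in WT at 0 h were LTPG1 with 4944, LTPG2 with 3695 and KCS10 with 3689 normalised reads per kb, followed by KCS6 with 3129 and CYP86A2 with 2837. LTPG1 and LTPG2 are lipid transfer proteins tethered to the cell surface, and KCS10 (FIDDLEHEAD) keeps neighbouring organs from fusing. At the other end stood KCS12 with 36.7, CYP77A6 with 36.4 and CYP86A4 with 33.5 normalised reads per kb. At 0 h limma found 0 of 43 genes past an FDR of 0.05, against 0.0915% of all 19667 genes tested. At an unadjusted p under 0.05 there were 2 of 43, against 7.77% of all genes, and edgeR and DESeq2 each called 0. The differences ran from -0.51 (CYP86A4) to 0.41 (KCS16) on the log2 scale.

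**Figure D1:**
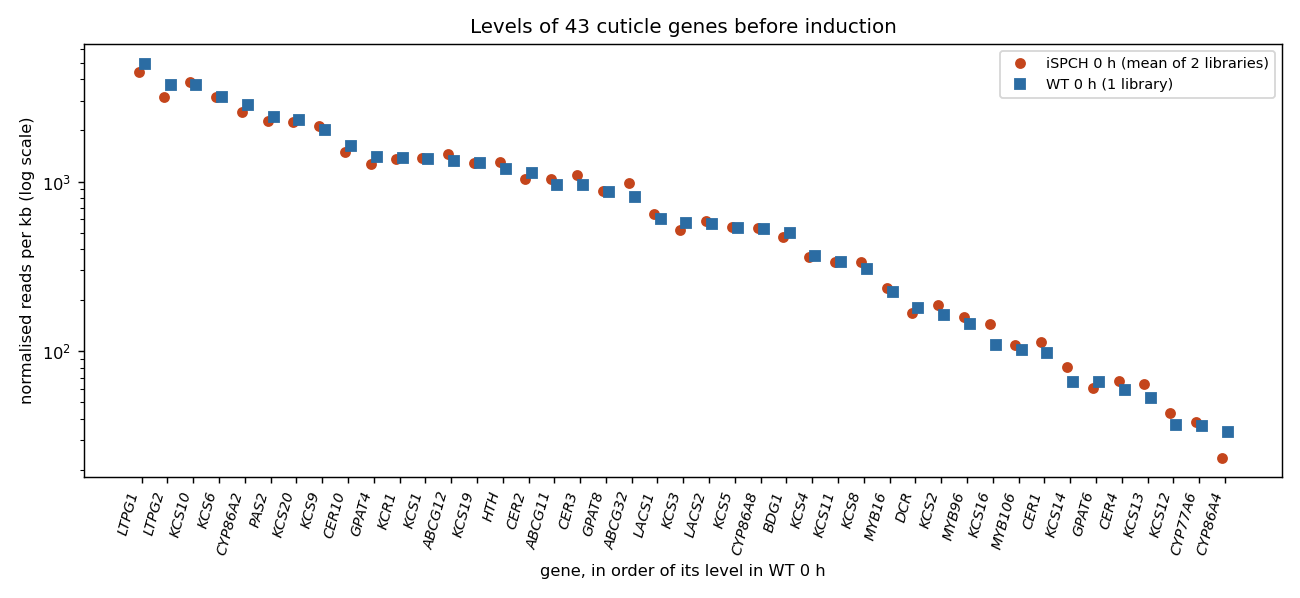
Level per kb of transcript (normalised reads, log scale) of the 43 tested cuticle genes at 0 h, in order of the WT value. Circles are the mean of the 2 iSPCH libraries and squares the single WT library. The points of the lines lie close together over the whole span, from 4408 in iSPCH and 4944 in WT for LTPG1 to 23.7 in iSPCH and 33.5 in WT for CYP86A4.

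After estradiol the induced line had less of many cuticle transcripts than WT. At 6 h 15 of 43 genes were lower in iSPCH and 0 were higher, against 3.57% lower and 1.16% higher of all genes (4.73% in either direction). At 8 h 17 of 43 were lower and 0 higher, against 5.98% and 4.75% of all genes (10.7% in either direction). Because the genes were chosen with earlier results of these data known, these counts describe the set and are no independent support. The median difference of the 43 was -0.36 at 6 h and -0.29 at 8 h, where that of all genes was 0 and -0.03. The libraries of the lines did not overlap for 33 of 43 genes at 6 h and 37 of 43 at 8 h. Of all genes 48.2% and 50.7% did not overlap, so a lack of overlap, given for single genes below, is common in these data. The hours share no library, but the fit gave each gene the same spread at both, so the lists are not independent. Lower at both hours were 11 genes, which is 73.3% of the 6 h list and 64.7% of the 8 h list. Another 4 were called at 6 h alone and 6 at 8 h alone. No gene's line difference at 8 h differed from that at 6 h past an FDR of 0.05 (0 of 43, 1.12% of all genes). There 7 of 43 had an unadjusted p under 0.05, against 9.28% of all genes, and edgeR and DESeq2 called 0. In bulk RNA of whole seedlings, fewer cells of a type and less RNA per cell cannot be told apart.

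The 6 h count rests on few libraries. Leaving out WT 6 h A gave 4 and leaving out WT 6 h B gave 5, and of the iSPCH pair, dropping B gave 5 and dropping A gave 21. In iSPCH 6 h B, 35 of the 43 genes lay below their value in iSPCH 6 h A, with a median log2 ratio of -0.18 against -0.01 for all genes. The 8 h count was 9 without WT 8 h B and 12 to 21 without each other library. Scaling by library size alone, which moves the median of all genes to 0.11 at 6 h and 0.09 at 8 h, gave 11 lower and 1 higher at 6 h, and 10 lower and 2 higher at 8 h. MYB16, KCS8, KCS9 and ABCG12 were lower at both hours under all 20 alternatives tried, and KCS6, KCS10, KCS19, CER2 and CER3 were lower at 8 h under all 20.

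**Figure D2:**
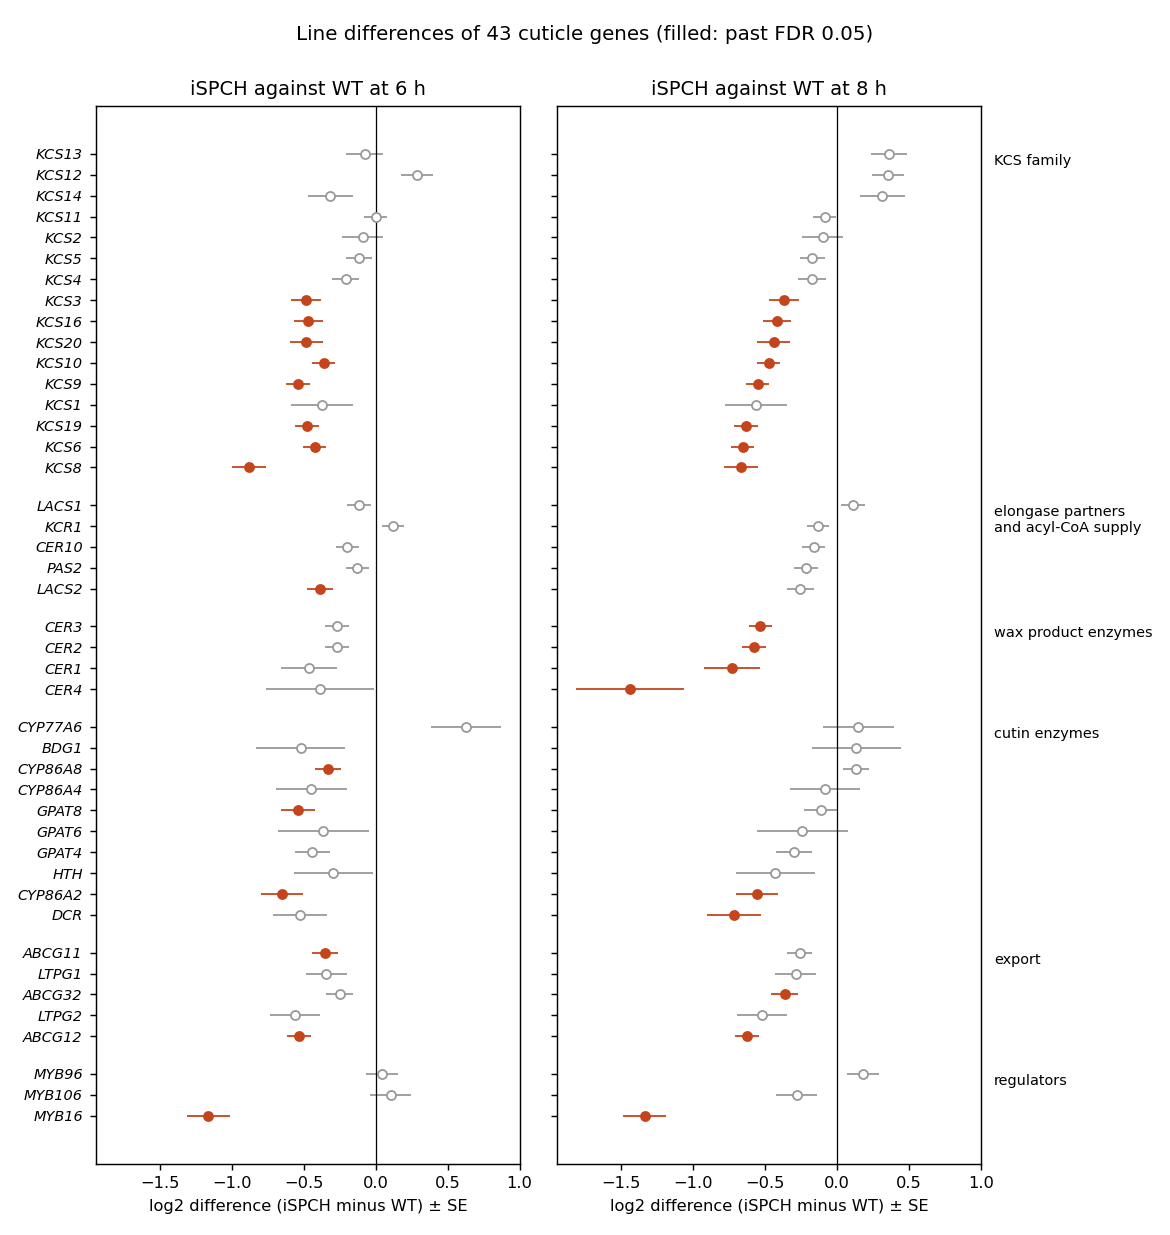
Line difference (iSPCH minus WT, log2 of normalised reads plus 1) with its SE for the 43 tested genes at 6 h (left) and 8 h (right), grouped by role. Filled points passed an FDR of 0.05: 15 at 6 h and 17 at 8 h, and every one lies left of 0.

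Among the regulators MYB16 stood out. MYB16 (AT5G15310) is a MIXTA-like factor that promotes cuticle formation and epidermal cell shape. It had 379 and 399.6 normalised reads in iSPCH and 370.5 in WT at 0 h. After 6 h it had 198 and 188 in iSPCH against 459.7 and 409 in WT, and after 8 h 151 and 226 in iSPCH against 477 and 458 in WT. At both hours each iSPCH library was below each WT library, whereas the untreated values lay side by side. From 0 h to 8 h MYB16 changed by -1.07 in iSPCH, which was called. In WT it changed by 0.335, which was not called and rests on 1 library at 0 h. The line difference was -1.17 ± 0.15 (SE, adjusted p = 0.000659) at 6 h and -1.34 ± 0.15 (SE, adjusted p = 5.65e-05) at 8 h, that is 2.24-fold and 2.52-fold lower in iSPCH. Its nearest relative MYB106 and the drought-linked wax regulator MYB96 were not called: MYB106 differed by 0.10 ± 0.14 at 6 h and -0.28 ± 0.14 at 8 h, and MYB96 by 0.05 ± 0.11 and 0.18 ± 0.11. MYB96 had 296 and 272 in iSPCH and 259.6 in WT at 0 h, 199 and 219.9 in iSPCH against 204 and 201 in WT at 6 h, and 245 and 266 in iSPCH against 229 and 222 in WT at 8 h. MYB106 overlaps a noncoding gene in the annotation, and without stated strand their reads cannot be told apart.

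Of the 16 tested genes of the KCS family, 8 were lower in iSPCH at 6 h and the same 8 at 8 h: KCS3, KCS6, KCS8, KCS9, KCS10, KCS16, KCS19 and KCS20. Of all genes 3.57% were lower at 6 h and 5.98% at 8 h. KCS6 (CER6, AT1G68530), the main elongase of the longest wax precursors in shoots, had 6867 and 7245 in iSPCH and 7047 in WT at 0 h, 6007 and 5389.9 in iSPCH against 7731 and 7551 in WT at 6 h, and 4640.1 and 4547 in iSPCH against 7178 and 7295 in WT at 8 h. Its WT libraries stayed in a narrow band over all hours, and its iSPCH libraries were below them after induction, lowest at 8 h. The difference was -0.43 ± 0.08 (SE, adjusted p = 0.00715) at 6 h and -0.66 ± 0.08 (SE, adjusted p = 8.43e-05) at 8 h.

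KCS9 (AT2G16280), which lengthens acyl chains for wax, suberin and membrane lipids, had 4811 and 4347 in iSPCH and 4302 in WT at 0 h, 1762 and 1808 in iSPCH against 2615 and 2583 in WT at 6 h, and 1766 and 1944 in iSPCH against 2668 and 2764 in WT at 8 h. KCS10 (AT2G26250) had 8511 and 8837 in iSPCH and 8318 in WT at 0 h, 3859.7 and 3401 in iSPCH against 4605 and 4716 in WT at 6 h, and 3179 and 3302 in iSPCH against 4509 and 4495 in WT at 8 h. Both genes were already below their 0 h values in WT, and lower still in every iSPCH library. KCS9 differed by -0.54 ± 0.08 (SE, adjusted p = 0.00153) at 6 h and -0.55 ± 0.08 (SE, adjusted p = 0.000423) at 8 h, and KCS10 by -0.36 ± 0.08 (SE, adjusted p = 0.0185) and -0.48 ± 0.08 (SE, adjusted p = 0.00136). KCS19 (AT5G04530) had 1937 and 1929.7 in iSPCH against 2810.0 and 2578 in WT at 6 h, and 1811 and 1970.3 in iSPCH against 3064 and 2804 in WT at 8 h. At 0 h it had 2789 and 2628 in iSPCH and 2677 in WT. In WT its change from 0 h was not called, and in iSPCH it fell at both hours, with changes of -0.49 and -0.52. Its line difference was -0.48 ± 0.08 (SE, adjusted p = 0.00407) at 6 h and -0.63 ± 0.08 (SE, adjusted p = 0.000153) at 8 h.

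KCS8 (AT2G15090) and KCS16 (AT4G34250) rose in WT and were lower in iSPCH. KCS8 had 699 and 611 in iSPCH and 598 in WT at 0 h, 689 and 604 in iSPCH against 1288 and 1098 in WT at 6 h, and 801 and 976 in iSPCH against 1499 and 1313 in WT at 8 h. The iSPCH libraries at 6 h were still at the untreated level, and at 8 h they lay between that and WT. The line difference was -0.88 ± 0.12 (SE, adjusted p = 0.000979) at 6 h and -0.67 ± 0.12 (SE, adjusted p = 0.00239) at 8 h. KCS16, which acts on the longest chains of leaf wax, had 330.1 and 277 in iSPCH and 228 in WT at 0 h. It reached 488 and 445 in iSPCH against 643 and 649 in WT at 6 h, and 463 and 485 in iSPCH against 636 and 628 in WT at 8 h. Untreated iSPCH was above the single WT library, and treated iSPCH below both WT libraries. Its difference was -0.47 ± 0.10 (SE, adjusted p = 0.0133) at 6 h and -0.42 ± 0.10 (SE, adjusted p = 0.0134) at 8 h. A stretch of 238 bases of KCS8 is 98.7% identical to AT2G15120, so reads from it could be split between them.

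KCS20 (AT5G43760), which acts with KCS2 in wax and suberin, had 4823 and 5145 in iSPCH and 5126 in WT at 0 h, 1871 and 1391 in iSPCH against 2219 and 2292 in WT at 6 h, and 1713 and 1522 in iSPCH against 2193 and 2186 in WT at 8 h. KCS3 (AT1G07720) had 1056 and 1126 in iSPCH and 1194 in WT at 0 h, 291 and 248 in iSPCH against 380.0 and 372 in WT at 6 h, and 237 and 271 in iSPCH against 337 and 318 in WT at 8 h. For both genes the groups did not overlap at either hour. KCS20 differed by -0.48 ± 0.11 (SE, adjusted p = 0.0278) at 6 h and -0.44 ± 0.11 (SE, adjusted p = 0.0246) at 8 h. KCS3 differed by -0.49 ± 0.10 (SE, adjusted p = 0.0142) at 6 h and -0.37 ± 0.10 (SE, adjusted p = 0.033) at 8 h. Each was lost in 4 alternatives or more at either hour, mostly those that leave out a library of the hour. The other 8 KCS genes were not called at either hour, and lay between -0.38 (KCS1) and 0.29 (KCS12) at 6 h and between -0.56 (KCS1) and 0.36 (KCS13) at 8 h. KCS13 and KCS14 are 97.5% identical over 1424 bases, and their reads may have been split between them.

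KCS13 (0.36), KCS14 (0.32) and KCS12 (AT2G28630) went the other way at 8 h without passing the threshold. KCS12 had 1329 and 1232 in iSPCH against 1091 and 919 in WT, higher in each iSPCH library, with a difference of 0.35 ± 0.11 (SE, adjusted p = 0.0511). It passed in 11 of 20 alternatives, and over all 20 the difference ran from 0.23 to 0.48.

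Among the 5 genes of elongase partners and acyl-CoA supply, 1 was lower in iSPCH at 6 h (LACS2) and 0 at 8 h, against 3.57% and 5.98% of all genes. In a list of 5 these counts cannot be told from those shares. CER2, also a partner protein of elongation, is counted with the wax products below. CER10 and KCR1, the reductases, and PAS2, the dehydratase, were not called at either hour, with differences from -0.20 (CER10) to 0.12 (KCR1) at 6 h and from -0.21 (PAS2) to -0.13 (KCR1) at 8 h. LACS1, an acyl-CoA synthetase of very long chains, was not called either. LACS2 (AT1G49430), the acyl-CoA synthetase that feeds cutin synthesis, had 1513 and 1428 in iSPCH and 1400.2 in WT at 0 h, 357 and 312 in iSPCH against 448 and 427 in WT at 6 h, and 333 and 318 in iSPCH against 374 and 403 in WT at 8 h. Each iSPCH library was below each WT library at both hours, and the difference was -0.39 ± 0.09 (SE, adjusted p = 0.0258) at 6 h and -0.25 ± 0.09 (SE, adjusted p = 0.101) at 8 h. The 6 h call was kept in 14 of 20 alternatives.

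All 4 tested genes of the wax product group were called lower in iSPCH at 8 h, and 0 of 4 at 6 h, against 5.98% and 3.57% of all genes. The group counts CER2, a partner protein of elongation, beside the enzymes CER1, CER3 and CER4. CER2 and CER3 kept the 8 h call under all 20 alternatives, and CER1 and CER4 did not. CER3 (AT5G57800), which with CER1 makes the alkanes of the wax, had 3004 and 2687 in iSPCH and 2462 in WT at 0 h, 1227 and 1265 in iSPCH against 1476 and 1533 in WT at 6 h, and 996 and 1027 in iSPCH against 1384 and 1546 in WT at 8 h. CER1 (AT1G02205) had 339.6 and 332 in iSPCH and 291 in WT at 0 h, 249 and 168 in iSPCH against 296 and 271 in WT at 6 h, and 129.5 and 128 in iSPCH against 174 and 264 in WT at 8 h. For both, the iSPCH libraries were the lower ones at 6 h too. The line difference at 8 h minus that at 6 h was called for 0 of the 4 genes of this group, with a median of -0.28, against 1.12% of all genes. The calls therefore do not show that the hours differ. CER3 differed by -0.27 ± 0.08 (SE, adjusted p = 0.0833) at 6 h and -0.53 ± 0.08 (SE, adjusted p = 0.000677) at 8 h, and CER1 by -0.47 ± 0.20 (SE, adjusted p = 0.237) and -0.73 ± 0.20 (SE, adjusted p = 0.0344). CER1 kept its 8 h call in 12 of 20 alternatives, with an adjusted p of 0.257 without WT 8 h B.

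CER2 (AT4G24510), a partner protein that lets KCS6 make the longest chains, had 1631 and 1728 in iSPCH and 1814 in WT at 0 h, 846 and 756 in iSPCH against 991 and 939 in WT at 6 h, and 636 and 580.3 in iSPCH against 891 and 920.2 in WT at 8 h. Each iSPCH library was below each WT library at both hours, and the difference was -0.27 ± 0.09 (SE, adjusted p = 0.0911) at 6 h and -0.58 ± 0.09 (SE, adjusted p = 0.000434) at 8 h. CER2 overlaps other annotated genes, and strand is not stated. CER4 (AT4G33790), the reductase that makes primary alcohols, was close to the floor after treatment, with 11.8 and 8.40 in iSPCH against 10.4 and 17.1 in WT at 6 h and 2.12 and 3.46 in iSPCH against 10.5 and 7.93 in WT at 8 h. The groups did not overlap at 8 h and overlapped at 6 h. Its 8 h difference, -1.44 ± 0.38 (SE, adjusted p = 0.0231), rests on 5 reads in iSPCH and 19 in WT. The ratio of these reads per size factor was 0.295, with an exact 95% interval of 0.0861 to 0.817 that covers counting error only. The call was lost with edgeR, with DESeq2 and with an added count of 5.

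Cutin enzymes gave 3 lower calls of 10 at 6 h and 2 of 10 at 8 h, against 3.57% and 5.98% of all genes. The hours had 1 gene in common. CYP86A2 (ATT1, AT4G00360), a fatty acid hydroxylase and the cutin gene with the highest level per kb in WT at 0 h, had 5171 and 6196 in iSPCH and 6284 in WT at 0 h, 2764 and 1997 in iSPCH against 3721 and 3669 in WT at 6 h, and 2453 and 2000.3 in iSPCH against 3239 and 3279 in WT at 8 h. The iSPCH libraries were below WT at both hours and lay further from each other than the WT pairs did. The difference was -0.65 ± 0.15 (SE, adjusted p = 0.0274) at 6 h and -0.56 ± 0.15 (SE, adjusted p = 0.0317) at 8 h. CYP86A2 overlaps a noncoding and a coding gene, and strand is not stated.

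CYP86A8 (LACERATA, AT2G45970), another hydroxylase, had 1369 and 1463 in iSPCH and 1398 in WT at 0 h, 661 and 571 in iSPCH against 769.6 and 781 in WT at 6 h, and 725 and 781 in iSPCH against 659.9 and 714 in WT at 8 h. GPAT8 (AT4G00400), an acyltransferase that joins hydroxy acids to glycerol, had 1632 and 1875 in iSPCH and 1731 in WT at 0 h, 768 and 578 in iSPCH against 996 and 948 in WT at 6 h, and 787 and 864 in iSPCH against 872 and 907 in WT at 8 h. For both, iSPCH was lower at 6 h, and at 8 h the iSPCH values of CYP86A8 were above WT and those of GPAT8 below it, by less than at 6 h. CYP86A8 differed by -0.34 ± 0.09 (SE, adjusted p = 0.0461) at 6 h and 0.13 ± 0.09 (SE, adjusted p = 0.421) at 8 h, and GPAT8 by -0.54 ± 0.12 (SE, adjusted p = 0.0166) and -0.11 ± 0.12 (SE, adjusted p = 0.651). The change in the difference between the hours was 0.47 ± 0.13 (SE, adjusted p = 0.117) for CYP86A8 and 0.43 ± 0.17 (SE, adjusted p = 0.372) for GPAT8. The 6 h call of CYP86A8 was kept in 5 of 20 alternatives and that of GPAT8 in 16 of 20.

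DCR (AT5G23940), an acyltransferase needed for cutin, had 359 and 297 in iSPCH and 350.4 in WT at 0 h, 239 and 181 in iSPCH against 283 and 317 in WT at 6 h, and 124 and 108 in iSPCH against 156 and 235 in WT at 8 h. It was lower in both iSPCH libraries at each hour, and its WT pair at 8 h lay far apart. The difference was -0.53 ± 0.19 (SE, adjusted p = 0.158) at 6 h and -0.72 ± 0.19 (SE, adjusted p = 0.03) at 8 h, and without WT 8 h B its adjusted p was 0.24. The other 6 cutin genes, CYP86A4, CYP77A6, GPAT4, GPAT6, BDG1 and HTH, were not called and ran from -0.52 (BDG1) to 0.63 (CYP77A6) at 6 h and from -0.43 (HTH) to 0.15 (CYP77A6) at 8 h. CYP86A4 and GPAT4 lie end to end on chromosome 1, 355 bases apart, and CYP86A2 and GPAT8, their relatives with 83.0% identity each, lie 10929 bases apart on chromosome 4.

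Of the exporters, ABCG12 (CER5, AT1G51500), a wax transporter of the plasma membrane, had 3744 and 3845 in iSPCH and 3439.7 in WT at 0 h, 1619.8 and 1528 in iSPCH against 2326 and 2226 in WT at 6 h, and 1432 and 1539 in iSPCH against 2436 and 2146 in WT at 8 h. Its partner protein ABCG11 (AT1G17840), which carries both wax and cutin lipids, had 3272 and 3389.9 in iSPCH and 3055 in WT at 0 h, 1554 and 1374 in iSPCH against 1935 and 1806 in WT at 6 h, and 1475 and 1704 in iSPCH against 1913 and 1882 in WT at 8 h. No iSPCH library of either gene reached a WT library of its hour. ABCG12 differed by -0.53 ± 0.08 (SE, adjusted p = 0.00215) at 6 h and -0.62 ± 0.08 (SE, adjusted p = 0.000185) at 8 h, and ABCG11 by -0.36 ± 0.09 (SE, adjusted p = 0.0346) and -0.26 ± 0.09 (SE, adjusted p = 0.0816). ABCG32 (AT2G26910), which exports cutin precursors, had 4929 and 4826 in iSPCH and 4039 in WT at 0 h, 2526 and 2764 in iSPCH against 3176 and 3115 in WT at 6 h, and 2326 and 2874 in iSPCH against 3388 and 3269.5 in WT at 8 h. It differed by -0.25 ± 0.10 (SE, adjusted p = 0.167) at 6 h and -0.36 ± 0.10 (SE, adjusted p = 0.0224) at 8 h. The 6 h call of ABCG11 was kept in 12 of 20 alternatives, with an adjusted p of 0.291 without WT 6 h A, and the 8 h call of ABCG32 in 16 of 20, with an adjusted p of 0.251 without iSPCH 8 h A. The lipid transfer proteins were lower in iSPCH in mean and not called: LTPG1 had 918 and 849 in iSPCH against 1025 and 1133 in WT at 8 h, and LTPG2 had 2684 and 3311 in iSPCH and 3529 in WT at 0 h, 849 and 587 in iSPCH against 1070.0 and 1017 in WT at 6 h, and 682 and 609 in iSPCH against 836 and 1024 in WT at 8 h. Their 8 h differences were -0.29 ± 0.14 (SE, adjusted p = 0.257) and -0.52 ± 0.17 (SE, adjusted p = 0.0963). ABCG11 and LTPG1 overlap other annotated genes.

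**Figure D3:**
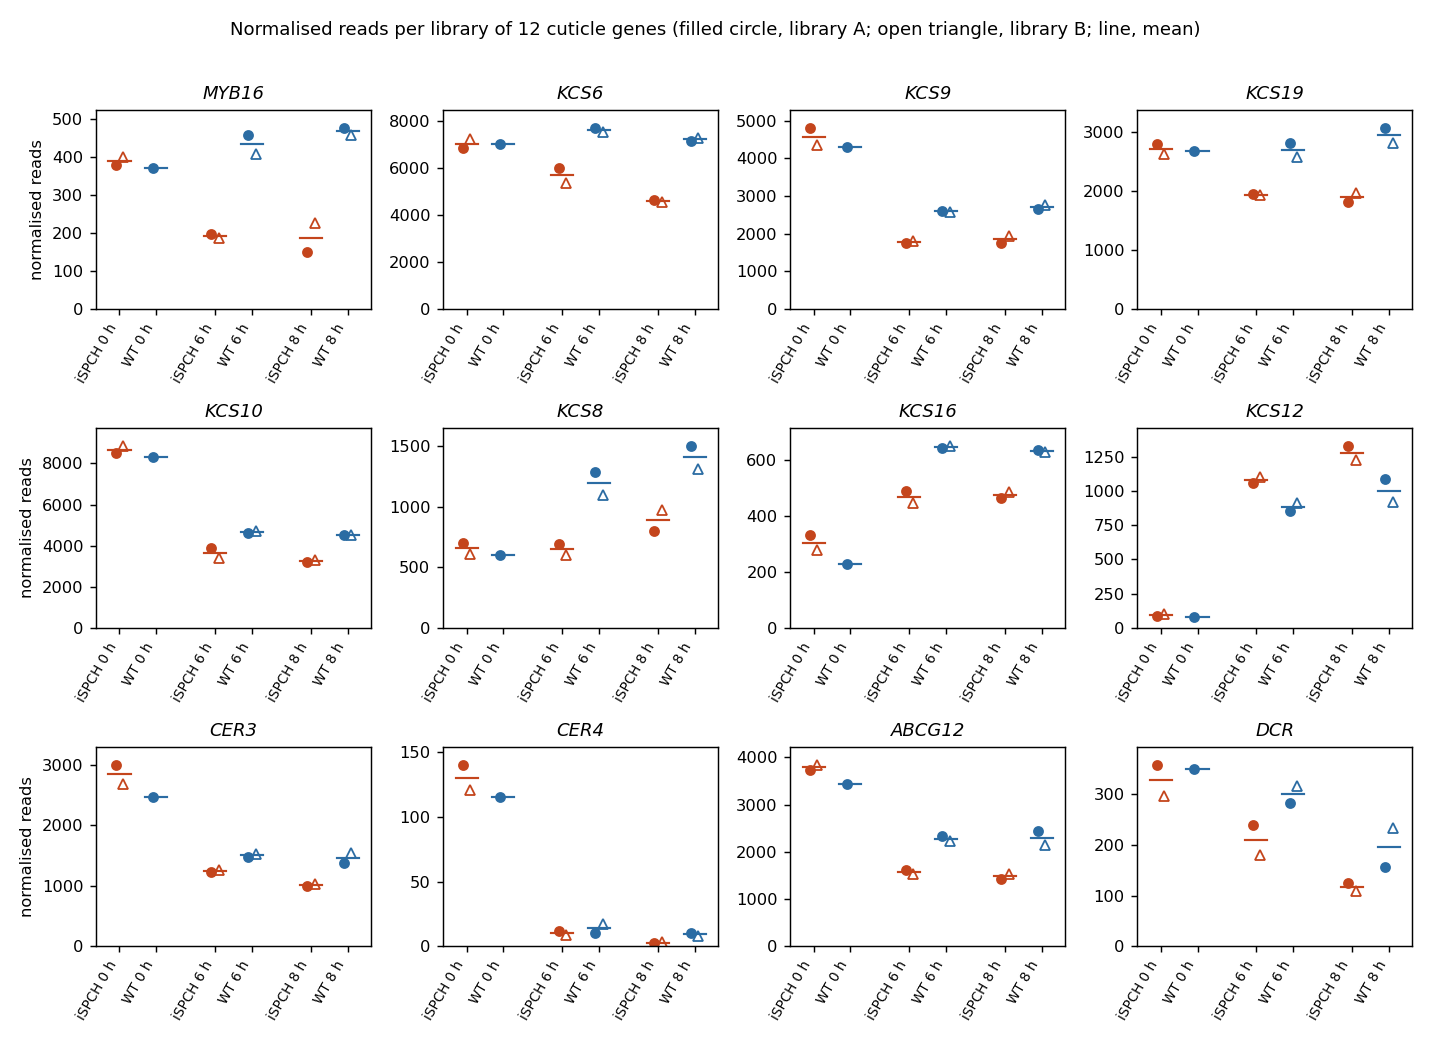
Normalised reads per library of 12 cuticle genes at 0 h, 6 h and 8 h, with iSPCH left of WT at each hour. Filled circles are library A, open triangles library B, and lines the mean, with 1 library in WT at 0 h. KCS6 and KCS19 stay near their 0 h level in WT and lie lower in iSPCH after induction. MYB16 lies lower in iSPCH after induction, and its treated WT libraries lie above the single WT library at 0 h, a change not called. KCS8, KCS12 and KCS16 lie above their 0 h level in WT, and CER4 is near 0 in both lines after treatment.

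Within each line most cuticle genes were lower after treatment than before it. The 0 h seedlings were untreated and there was no untreated group at 6 h or 8 h, so estradiol and elapsed time cannot be told apart. In iSPCH 3 genes were higher and 34 lower at 6 h, and 3 higher and 36 lower at 8 h. In WT 4 of the 43 were higher and 29 lower at 6 h, and 3 higher and 30 lower at 8 h. Much of the transcriptome moved: in iSPCH 33.2% of all genes were called higher and 31.9% lower at 6 h, and 34.8% and 33.5% at 8 h. In WT the shares were 29.3% higher and 27.9% lower at 6 h, and 31.2% and 29.9% at 8 h. The median change of the 43 was -0.92 at 6 h and -1.07 at 8 h in iSPCH, and -0.71 and -0.81 in WT, where the medians of all genes lay between 0 and 0.02. The 6 h and 8 h comparisons of a line share their 0 h libraries, and the fit took the spread of WT at 0 h, with its 1 library, from the other groups.

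At 6 h the steepest falls in both lines were in the alcohol enzyme CER4 and in the cutin genes HTH and BDG1. HTH (HOTHEAD, AT1G72970), an oxidoreductase that keeps floral organs from fusing, had 2882 and 2790.1 normalised reads at 0 h, 528 and 315 at 6 h and 251 and 279 at 8 h in iSPCH, and 2562 at 0 h, 472 and 531 at 6 h and 286 and 443 at 8 h in WT. CER4 had 140.2 and 121 normalised reads at 0 h, 11.8 and 8.40 at 6 h and 2.12 and 3.46 at 8 h in iSPCH, and 116 at 0 h, 10.4 and 17.1 at 6 h and 10.5 and 7.93 at 8 h in WT. Both genes were several-fold lower in every treated library of either line than in any untreated one. HTH changed by -2.80 and -3.42 in iSPCH and by -2.35 and -2.84 in WT at 6 h and 8 h, and CER4 by -3.58 and -5.13 in iSPCH and -3.02 and -3.53 in WT. LTPG1 had 3996 and 4661 normalised reads at 0 h, 1131 and 789.8 at 6 h and 918 and 849 at 8 h in iSPCH, and 4855 at 0 h, 1173 and 1227 at 6 h and 1025 and 1133 at 8 h in WT. At 6 h it fell by 2.19 in iSPCH and fell by 2.02 in WT on the log2 scale. LACS2 fell by 2.14 in iSPCH and fell by 1.68 in WT at 6 h. The changes at 6 h were -2.17 in iSPCH and -1.78 in WT for KCS1, -2.02 and -1.66 for KCS3, and -2.08 and -1.76 for LTPG2.

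KCS12, KCS16 and KCS8 were among the few genes called higher than at 0 h. KCS12 had 84.0 and 102 normalised reads at 0 h, 1057 and 1102 at 6 h and 1329 and 1232 at 8 h in iSPCH, and 79.3 at 0 h, 857 and 913 at 6 h and 1091 and 919 at 8 h in WT. Treated libraries stood far above untreated ones in either line. On the log2 scale the rise was 3.53 at 6 h and 3.78 at 8 h in iSPCH, and 3.46 and 3.64 in WT. KCS16 rose 1.54-fold and 1.56-fold in iSPCH at 6 h and 8 h, and 2.82-fold and 2.76-fold in WT. KCS8 had a log2 change of -0.02 at 6 h, which was not called, and of 0.44 at 8 h in iSPCH, and of 0.99 and 1.23 in WT. KCS11 was called higher in iSPCH at 6 h (0.23) and KCS14 in WT at 6 h (0.51).

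**Figure D4:**
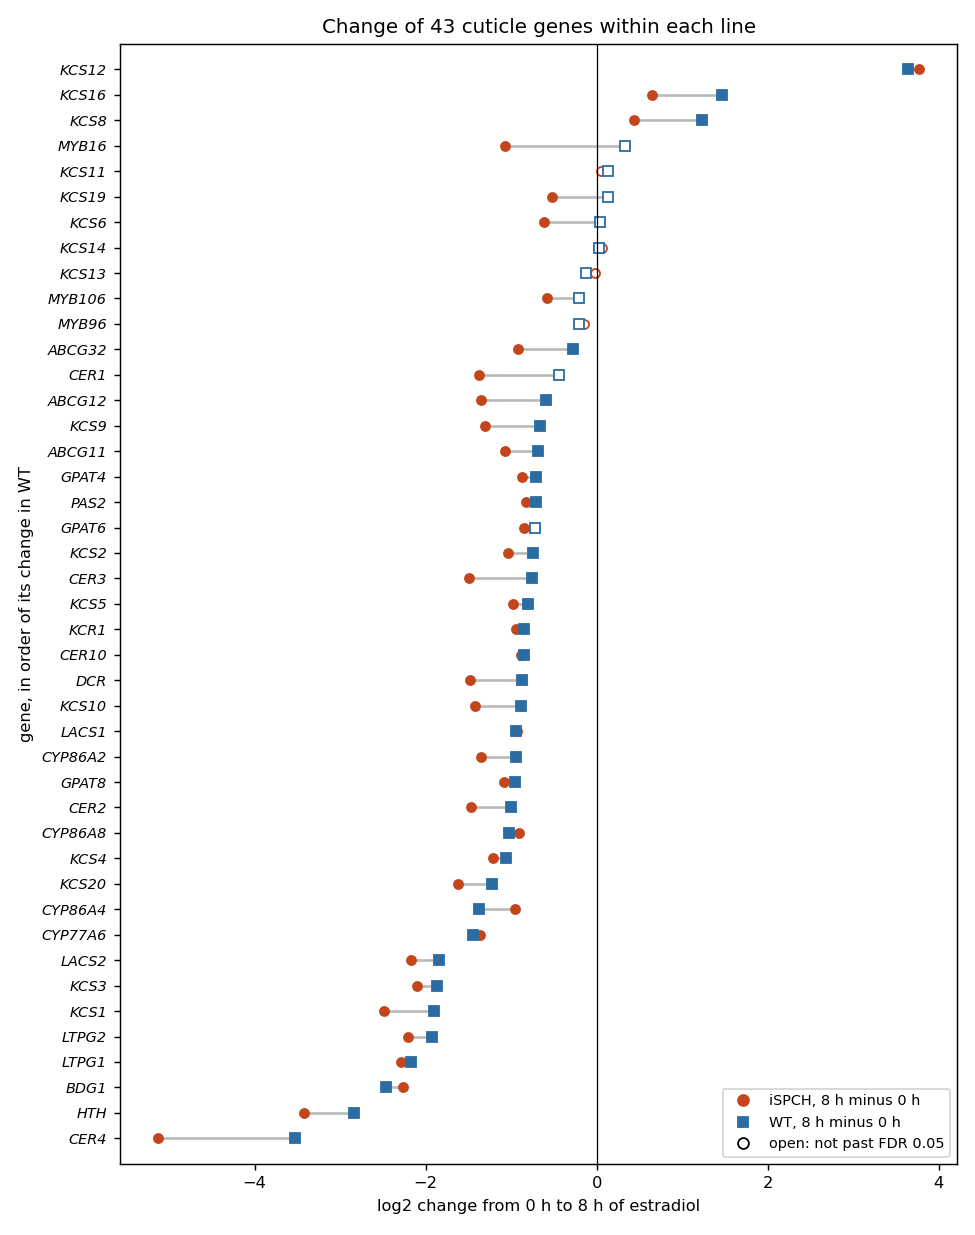
Change from 0 h to 8 h (log2 of normalised reads plus 1) of the 43 tested genes in iSPCH (circles) and WT (squares), in order of the WT change. Open symbols did not pass an FDR of 0.05. Most genes lie left of 0 in both lines, and for MYB16, KCS6, KCS8, KCS16, KCS19 and CER4 the circle lies well left of the square.

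The change from 6 h to 8 h was not shown to differ between the lines: the line difference at 8 h minus that at 6 h was called for 0 of 43 genes. Within WT 0 of 43 genes were called between these hours (0.412% of all genes), and edgeR and DESeq2 each called 0. In limma 6 had an unadjusted p under 0.05 (10.4% of all genes). Leaving out WT 8 h B gave 1, DCR, lower at 8 h. In iSPCH KCS8 was higher at 8 h than at 6 h and KCS6, CER2, CER3, CER4 and DCR were lower (1 higher and 5 lower of 43, against 3.98% and 3.58% of all genes). Their changes were 0.45 ± 0.12 (SE, adjusted p = 0.0335) for KCS8, -0.31 ± 0.08 (SE, adjusted p = 0.0295) for KCS6, -0.40 ± 0.09 (SE, adjusted p = 0.00926) for CER2, -0.30 ± 0.08 (SE, adjusted p = 0.0399) for CER3, -1.56 ± 0.38 (SE, adjusted p = 0.0195) for CER4 and -0.83 ± 0.19 (SE, adjusted p = 0.0179) for DCR. Each was lost under some alternative: the count was 3 higher and 0 lower once iSPCH 6 h A was left out, 2 once iSPCH 8 h A was, 1 once iSPCH 8 h B was, and 1 when no other group entered the fit.

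The line difference at 8 h was also set against that at 0 h, where WT has 1 library. All values of this comparison carry the error of that library, and no alternative could leave it out. The line difference at 8 h minus that at 0 h was below 0 past an FDR of 0.05 for 10 of 43 genes and above 0 for 0, against 1.48% and 1.78% of all genes. The 10 were 6 KCS genes (KCS6, KCS8, KCS9, KCS10, KCS16 and KCS19), CER3, ABCG12, ABCG32 and MYB16. MYB16 had the largest, -1.41 ± 0.24 (SE, adjusted p = 0.00508). KCS6, MYB16, CER3, KCS16 and ABCG12 kept the call in all 19 alternatives, ABCG32 kept it in 10, and the count was 5 without iSPCH 0 h A and 5 without iSPCH 8 h A. This comparison shares its libraries with the 8 h line comparison and with the changes within each line.

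Other genes of the pathway were also chosen with earlier results of these data known. This list of 28, with 23 tested, gave 4 lower and 0 higher at 6 h, against 3.57% and 1.16% of all genes. At 8 h 6 were lower and 1 higher, against 5.98% and 4.75% of all genes, so that the count of higher genes is near the share over all genes. CER26, a relative of CER2, had 321 and 310.3 in iSPCH against 509.8 and 456 in WT at 8 h, and differed by -0.61 ± 0.12 (SE, adjusted p = 0.0103) at 6 h and -0.61 ± 0.12 (SE, adjusted p = 0.00448) at 8 h. MYB94, which acts with MYB96 on wax genes, differed by -0.52 ± 0.12 (SE, adjusted p = 0.0184) and -0.41 ± 0.12 (SE, adjusted p = 0.0354). DCF, which puts ferulate into cutin, differed by -1.09 ± 0.20 (SE, adjusted p = 0.0148) and -1.21 ± 0.20 (SE, adjusted p = 0.0038), and CUS2, a cutin synthase, by -1.60 ± 0.43 (SE, adjusted p = 0.0481) and -1.68 ± 0.43 (SE, adjusted p = 0.0215). At 8 h FATB, a plastid thioesterase, and ABCG13, a cutin exporter of flowers, were lower as well, with differences of -0.24 and -1.21. LACS3, a long-chain acyl-CoA synthetase, was higher at 8 h: it had 463 and 456 in iSPCH against 224 and 239 in WT at 8 h, a difference of 0.99 ± 0.10 (SE, adjusted p = 1.06e-05), and 255 and 245 in iSPCH against 286 and 281 in WT at 6 h. Of 10 tested genes of suberin, the related root polyester, 0 were called at either hour, against 4.73% of all genes at 6 h and 10.7% at 8 h, a difference too small to read in a list of 10. Their medians were -0.10 and 0.02.

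Of the marker lists of epidermal and other cell types, the root hair list alone was called in full. Over all genes 3.57% were called lower at 6 h and 5.98% at 8 h. The lists are short and were not tested as sets. The 4 epidermis markers (ATML1, PDF2, PDF1, ACR4) summed to 5341 and 4558 normalised reads in iSPCH against 5713 and 5927 in WT at 6 h, and to 4623 and 4886 in iSPCH against 5342 and 5662 in WT at 8 h, and none was at 0. ATML1 was called lower at 6 h (-0.30 ± 0.08 (SE, adjusted p = 0.0334)), and ATML1 and PDF2 at 8 h (-0.34 ± 0.08 (SE, adjusted p = 0.00781) and -0.32 ± 0.09 (SE, adjusted p = 0.0307)), while PDF1 and ACR4 were not called at either hour. The 4 root hair markers, all called lower at both hours, summed to 232 and 96.6 in iSPCH against 513 and 552 in WT at 6 h, and to 22.3 and 34.6 in iSPCH against 376 and 419 in WT at 8 h. Of 4 guard cell markers ALMT12 alone was called, lower at both hours. The 4 summed to 838 and 829 in iSPCH against 975 and 921 in WT at 6 h, and to 913 and 915 in iSPCH against 974 and 943 in WT at 8 h. Of 4 endodermis and stele markers CASP1 and SHR were lower at 8 h, both tested trichome markers of 3 were uncalled, and the 3 seed markers had too few reads to test. The part of these cell types in the cuticle results was not tested.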

How the data were processed

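Poly-A RNA of whole seedlings was sequenced in 11 libraries. Per the labels' protocols, RNA was taken with RNeasy columns and DNaseI and libraries were made with TruSeq reagents. Of software, CASAVA 1.8, TopHat and DESeq appear in the submitters' processing notes with no role, beside the genome build TAIR10. Strand, counting tool and gene models are not given there or in the labels. The deposited signal values are the authors' group means of normalised read counts, 33602 genes by 6 groups. Whole reads per library were recovered from their digits: 100% of WT 0 h values are whole multiples of 1 step, and 100% of the other values have a solution in 2 steps, within the rounding deposited. For 111 abundant genes (31.3% of reads, no cuticle gene) several solutions exist, and these were left untested.

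Recovered reads over the authors' size factors were analysed as log2(value + 1) with limma 3.58.1 in R 4.3.3, as a trended, robust fit with a coefficient for each of the 6 groups. Only genes reaching a CPM of 1 in 2 or more libraries were tested, 19667 in all. A call is an FDR of 0.05 (Benjamini-Hochberg, within each comparison). edgeR 4.0.16, DESeq2 1.42.0, other scalings, added counts and filters, and leaving out each library were alternatives. Recovery and fit were also run on simulated data, with an outcome not given here. There only some genes changed, in treated iSPCH alone, so the wide change from 0 h seen in both lines was not simulated. Copies were sought with BLAST+ 2.17.0 (95% identity over 100 bases). The 11 genes that overlap another are so in TAIR10.1. The genes described and the lists beside them were chosen with earlier results of these data known. Genes given per library are those called between the lines, the 3 highest per kb in WT at 0 h, and the largest called change at 6 h in WT in each role.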

Additional observations from a re-analysis of the deposited data

Results flagged for a closer look

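For 10 cuticle genes the difference between the lines at 8 h differed from that at 0 h past an FDR of 0.05 in limma, a test of the difference itself. On the log2 scale the value was -0.82 for KCS16, -0.79 for KCS8, -0.66 for KCS6, -0.65 for KCS19, -0.64 for KCS9 and -0.54 for KCS10. It was -0.74 for CER3, -0.76 for ABCG12, -0.64 for ABCG32 and -1.41 for MYB16. KCS16 is the one whose 0 h values lay furthest apart, 330.1 and 277 normalised reads in iSPCH and 228 in the single WT library. All 10 values carry the error of that 1 library.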

How the results depend on the processing

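No alternative turned the direction of a call. At 6 h the count of genes called between the lines was 15, 8 when no other group entered the fit, and 4 to 21 on leaving out each library. At 8 h it was 17, and 9 to 21 on leaving out each library. For iSPCH at 8 h against 6 h it was 6, 1 when no other group entered the fit, and 1 to 7 on leaving out each library. WT at 8 h against 6 h gave 0 to 1, the line difference at 8 h minus that at 6 h 0 to 2, and the line difference at 8 h minus that at 0 h 5 to 12, on leaving out each library. Counts of changes from 0 h stayed between 30 and 39. A group left with 1 library took its spread from the rest. No paired analysis was possible because the recovered values cannot be traced to the replicate numbers of the labels. With CER4 at 5 reads over the iSPCH libraries at 8 h, its size there is limited by depth, and the 10 untested genes cannot be compared.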
